A study of Rattus norvegicus with 415 samples.

Results

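The 4 genes of glucocorticoid signalling followed here in rat adipose tissue were Nr3c1, Hsd11b1, Fkbp5 and Sgk1. They were taken by their Ensembl identifiers, ENSRNOG00000014096, ENSRNOG00000005861, ENSRNOG00000022523 and ENSRNOG00000011815, and not by their values. All 4 were found among the 18358 genes of the table, and all 4 passed the filter on low values that kept 16131 genes. The tissue came from outbred rats aged 17 weeks and formed 1 group. Each mean and SD is given over all samples of the group unless a block or part of them is named. The labels name no treatment, sex, diet or fat depot for any sample. The tissue was frozen after dissection, RNA was extracted with Trizol, and single-end reads of 75 bp were sequenced on an Illumina HiSeq 2500. Levels are FPKM, the fragments of a gene scaled by the gene's length and the sample's depth, so that levels can be set side by side between genes. In whole tissue, fewer cells of a type and less RNA per cell cannot be told apart.

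Glucocorticoids, corticosterone in the rat, enter the cell and bind the glucocorticoid receptor, which is encoded by Nr3c1. The bound receptor moves to the nucleus and acts on its target genes through DNA elements built from the hexamer AGAACA. Hsd11b1 encodes an enzyme that regenerates active glucocorticoid from its inactive form inside the cell, and fat is a tissue known for this activity. Fkbp5 encodes a co-chaperone of the receptor complex that lowers the hormone affinity of the receptor. It is itself a receptor target, which closes a feedback loop. Sgk1 encodes a serine/threonine kinase whose transcription is raised by glucocorticoids and mineralocorticoids and which acts on ion channels and transporters.

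Fkbp5 and Sgk1 are the pair of targets whose levels moved together across samples, and the sequence before their annotated starts is shown for that reason. The sequences are RefSeq's, on the GRCr8 assembly, and each covers the 250 bases before a start. Starts of a gene are ordered by rising coordinate. On the minus strand the first start named is therefore the farthest downstream and the last is the farthest upstream. Capitals mark exact matches, on either strand, to the motifs searched. These were TATAAA for the TATA box, the CCAAT box by those letters, GGGCGG for the GC box, CACGTG for the E-box, TGACGTCA for the cAMP response element, and AGAACA for the glucocorticoid hexamer. The full palindromic glucocorticoid response element was searched as well, which joins the hexamer and its reverse complement over any 3 bases. A full element contains the hexamer.
Fkbp5, chr20:6543556-6543805, minus strand: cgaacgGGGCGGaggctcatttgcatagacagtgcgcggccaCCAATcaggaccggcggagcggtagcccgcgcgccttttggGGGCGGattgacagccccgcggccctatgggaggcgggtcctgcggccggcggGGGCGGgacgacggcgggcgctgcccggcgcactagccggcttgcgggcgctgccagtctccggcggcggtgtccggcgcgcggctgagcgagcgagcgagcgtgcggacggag
Sgk1, first of 3 starts, chr1:24804832-24805081, minus strand: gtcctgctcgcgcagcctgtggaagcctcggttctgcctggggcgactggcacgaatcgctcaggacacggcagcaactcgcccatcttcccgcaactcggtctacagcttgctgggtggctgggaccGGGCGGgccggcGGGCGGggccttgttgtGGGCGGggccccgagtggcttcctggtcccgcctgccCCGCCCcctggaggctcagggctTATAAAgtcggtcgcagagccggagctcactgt
Sgk1, last of 3 starts, chr1:24807232-24807481, minus strand: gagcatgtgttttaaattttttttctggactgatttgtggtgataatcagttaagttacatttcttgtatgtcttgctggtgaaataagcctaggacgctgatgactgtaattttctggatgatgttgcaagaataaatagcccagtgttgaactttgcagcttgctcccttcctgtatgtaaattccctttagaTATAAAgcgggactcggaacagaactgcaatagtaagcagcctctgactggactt
The Fkbp5 window was rich in G and C (77% over the 300 bases from 250 before to 50 after the start) and held 1 CCAAT box and 4 GC boxes, 3 of them before the start. The first Sgk1 window (66% G and C) held 4 GC boxes and a TATA box that began 33 bases before the start. The last Sgk1 window (40.7% G and C) held a TATA box 55 bases before its start and no GC box. Of 33469 such windows, 33.1% held a GC box, 37.5% a CCAAT box, 14.2% a TATA box, 6.42% an E-box and 1.83% a cAMP response element. The hexamer stood in 20.7% of windows and the full element in 0.0149%. Neither was matched in the windows of Fkbp5, Sgk1 or Nr3c1, which says only that these letters are not in these windows. Promoter windows were matched for 3 of the 4 genes, all but Hsd11b1.

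A sample's title gives a number followed by a suffix, whose meaning is not stated in the labels. Of the title numbers, 89 (28%) stood on more than 1 sample, and these covered 44.8% of the samples. Gaps above 500 in the numbering separated 3 blocks, with 9.40% (57215 to 59114), 55.9% (60213 to 63056) and 34.7% (63906 to 64305) of the samples. The blocks are possible batches and not groups of the study. Reads in genes ranged from 2139163 to 6248214 per sample with a median of 4602134, and 12 samples, all in the first 2 blocks, had fewer than 3500000. The labels do not say whether samples came from separate animals, so p-values measure the spread between these samples. The identifiers could not be paired with gene names here, so the other genes of the pathway and the markers of adipocytes and other cell types were not analysed here.

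The receptor gene stood highest and varied least of the 4 genes. Nr3c1 ranged from 53.3 FPKM to 119.2 FPKM with a median of 80.8, and its mean was 81.7 ± 7.60 (SD over all samples), a coefficient of variation of 9.30%. Of the samples, 42.2% lay between 70 and 80 FPKM and 43.6% between 80 and 90 FPKM. Its mean was above that of 95.8% of the genes tested, while its SD on the log2(FPKM + 1) scale, 0.13, was above that of 12% of them. Hsd11b1, the enzyme gene, stood lowest, with 6.86 FPKM in the lowest sample, 14.1 in the median sample and 32.4 in the highest. Its mean of 14.6 ± 3.34 FPKM (SD over all samples) gave a coefficient of variation of 22.8%. Most samples lay close together, 59.3% of them between 10 and 15 FPKM, and 7 stood at 25 FPKM or above.

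Fkbp5, the co-chaperone gene, had the widest spread of the 4 genes. It ranged from 18.8 FPKM to 97.9 FPKM with a median of 40.3, a ratio of 5.21 between the highest and the lowest sample. Its mean was 45.5 ± 19.3 FPKM (SD over all samples), a coefficient of variation of 42.4% against a median of 18.2% over all genes tested. The log2 SD of 0.60 was above that of 88% of genes. The samples did not gather around the median. Between 20 and 30 FPKM there were 26.7% of the samples, between 40 and 50 there were 12.3%, and between 70 and 80 there were 10.8%. On the log2 scale the distribution was flat (excess kurtosis -1.22), and a description with 2 normal components, with means of 4.92 and 5.95 and 48% of samples in the upper one, had a BIC lower by 73.4 than 1 component. The histogram showed no empty range between the components, so samples were not split. Sgk1, the kinase gene, ranged from 13.8 FPKM to 43.9 FPKM with a median of 27.6 and a mean of 27.8 ± 6.02 (SD over all samples). Its coefficient of variation was 21.6%, and a second component did not lower its BIC. For Nr3c1 and Hsd11b1 a second component lowered the BIC by 20.5 and 14.3, with 1.88% and 2.15% of samples in the upper component.

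**Figure D1:**
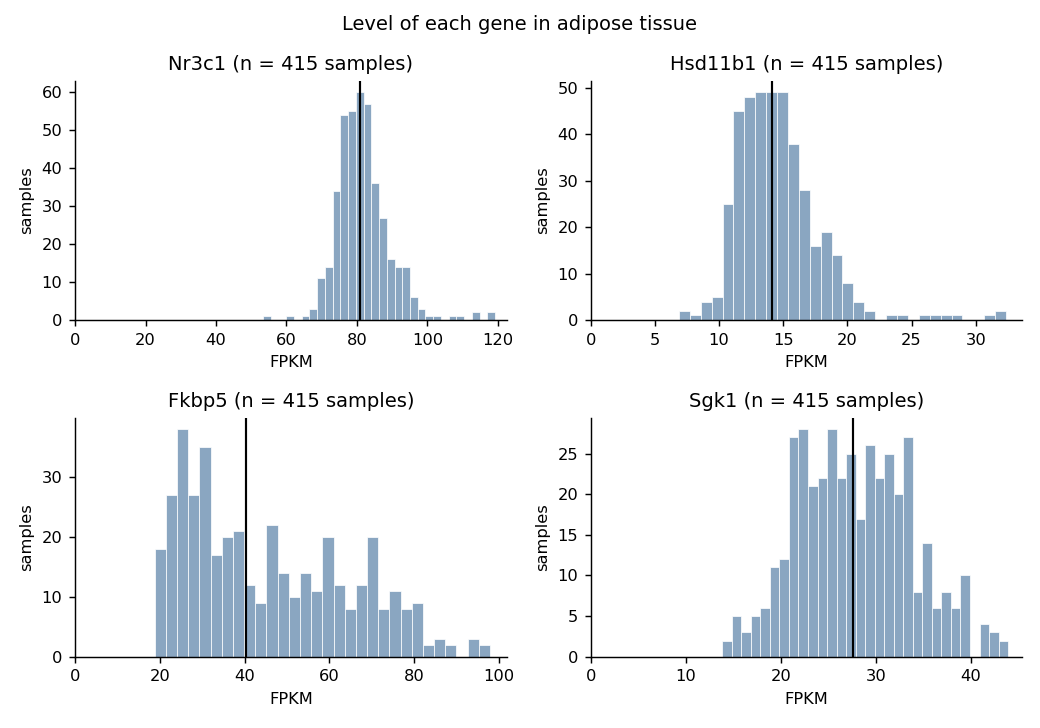
Number of samples (y axis) by FPKM (x axis, starting at 0) for each gene over all samples, with a black line at the median. Nr3c1 forms a narrow peak around its median of 80.8 FPKM, Hsd11b1 has a thin tail up to 32.4 FPKM, Fkbp5 spreads from 18.8 to 97.9 FPKM, and Sgk1 lies between 13.8 and 43.9 FPKM.

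By their medians the genes ranked Nr3c1, Fkbp5, Sgk1 and Hsd11b1. The order of the neighbours Fkbp5 and Sgk1 did not hold beyond their spread: Fkbp5 was the higher of the pair in 82.9% of samples and not in 71 samples, and the ratio of their FPKM values ran from 0.638 to 4.10. Nr3c1 exceeded Fkbp5 in all but 26 samples, and Sgk1 exceeded Hsd11b1 in all but 11. Nr3c1 exceeded both Sgk1 and Hsd11b1 in every sample. All 4 genes were detected in every sample, with mean read counts per sample of 1898 for Nr3c1, 299.9 for Hsd11b1, 707 for Fkbp5 and 469.9 for Sgk1. Counting error at these depths was set against the mean squared deviation of a gene's reads from those expected at its mean FPKM. It made up 7.33%, 8.16%, 0.782% and 4.59% of this deviation for Nr3c1, Hsd11b1, Fkbp5 and Sgk1.

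The 12 samples with few reads stood apart for the receptor and the enzyme gene. Their median Nr3c1 level was 104.5 FPKM, against 80.6 in the other samples, and their median Hsd11b1 level was 24.96 against 14.03 FPKM. Fkbp5 had medians of 52.2 and 40.02 FPKM, and Sgk1 had medians of 26.6 and 27.6 FPKM, in these 12 samples and the rest. The highest Nr3c1 value (119.2 FPKM) and the highest Hsd11b1 value (32.4 FPKM) came from the same sample, titled 57810 with suffix 3, which had 2617924 reads. The sample titled 64199 with suffix 4 had the lowest Nr3c1 value (53.3 FPKM) and the second lowest Hsd11b1 value (7.55 FPKM) at 4927703 reads. The extremes of Fkbp5 and Sgk1 came from other samples.

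Over all samples, Nr3c1 fell with the number of reads. Its Pearson correlation with log2 reads was -0.717 (Spearman's rho -0.652, permutation p = 1e-05, adjusted p = 2e-05 over 4 genes), and leaving out the 2 samples of most extreme depth gave r = -0.697. This p is the smallest that 100000 permutations can give. In limma's fit over all genes Nr3c1 changed by -0.49 (SE 0.023) on the log2(FPKM + 1) scale per doubling of reads, with a Benjamini-Hochberg adjusted p of 1.13e-64, and Hsd11b1 by -0.62 (SE 0.067, adjusted p = 5.44e-18). So 2 of the 4 genes were called, both downward, where 70% of all genes tested were called, 41.7% upward and 28.3% downward. For Hsd11b1 the correlation with log2 reads was -0.416 (rho -0.215, permutation p = 1e-05, adjusted p = 2e-05) and -0.359 without those 2 samples. Within the 3 blocks r was -0.857, -0.702 and -0.626 for Nr3c1 and -0.746, -0.426 and -0.188 for Hsd11b1. Without the 12 samples with few reads r was -0.610 for Nr3c1 and -0.184 for Hsd11b1. Quantile normalization, which gives every sample the same distribution of values, reduced the change of Nr3c1 per doubling of reads to -0.056 and its r to -0.129. That of Hsd11b1 grew to -0.74 and its r to -0.459.

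Over all samples, Fkbp5 and Sgk1 showed no such relation that passed the test. Their r with log2 reads was -0.0688 (rho -0.0615, permutation p = 0.164, adjusted p = 0.219) and 0.0389 (rho 0.0175, permutation p = 0.429, adjusted p = 0.429). Without the same 2 samples these were -0.0834 and 0.0453. Within the blocks r was 0.0266, -0.151 and 0.0691 for Fkbp5 and 0.0903, -0.0391 and 0.0035 for Sgk1. Of these, Fkbp5 passed limma's test within block 2, with a change of -0.44 per doubling of reads (adjusted p = 0.0344), where 62.6% of all genes were called. The deposited values were already scaled between samples, and a gene whose reads follow that scaling has log2 reads that rise with the log2 scaling factor at a slope near 1. The slope was 0.562 for Nr3c1 against a median of 0.671 over 619 genes with a like number of reads per base. It was 0.421 for Hsd11b1 against 1.21 over 585 like genes, 0.741 for Fkbp5 against 0.910 over 1411, and 1.03 for Sgk1 against 1.08 over 1569. Because depth moved with Nr3c1 and Hsd11b1, the results for these 2 genes are also given with log2 reads taken into account.

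**Figure D2:**
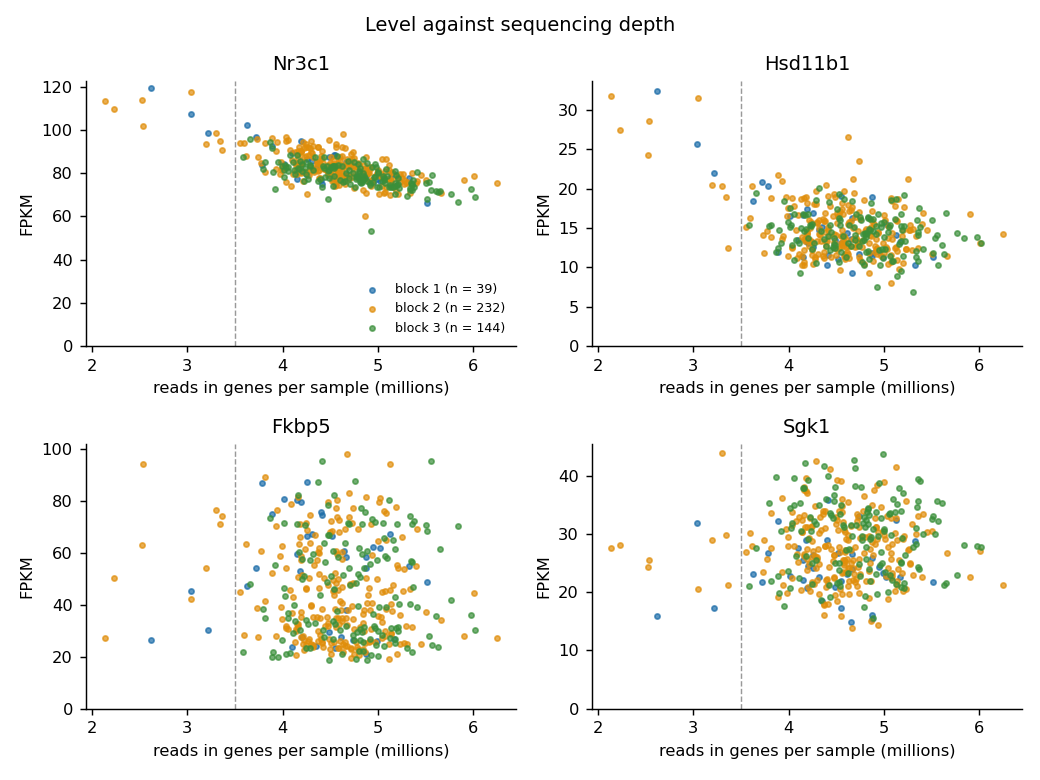
FPKM (y axis, starting at 0) against the number of reads in genes (x axis) for each gene, 1 point per sample, coloured by block of title numbers, with a dashed line at the 3500000 reads used to define samples with few reads. Nr3c1 declines along the whole range, Hsd11b1 has its highest value (32.4 FPKM) left of the line and values above 20 FPKM on both sides of it, and Fkbp5 and Sgk1 show no slope that passed the test.

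Along the title numbers, Sgk1 rose and Nr3c1 fell, and Hsd11b1 fell in the fitted line but not in its median. From the lowest to the highest rank of the number, Sgk1 changed by 0.31 (SE 0.050) on the log2(FPKM + 1) scale, with an adjusted p of 1.02e-08 in limma's test. With the samples cut into 10 near-equal parts in this order, its median was 24.1 FPKM in the first part and 32.2 FPKM in the last, and the ranges of these parts (14.9 to 35.8 and 19.7 to 43.7) overlapped. Nr3c1 changed by -0.14 (SE 0.021, adjusted p = 3.76e-10), from a median of 82.9 FPKM in the first part to 77.8 in the last. Hsd11b1 changed by -0.12 (SE 0.048, adjusted p = 0.0247), with a mean of 15.9 FPKM in the first part and 14.03 in the last, while its median was 13.8 FPKM in the first part and 14.4 in the last. Fkbp5 changed by -0.16 (SE 0.10), which did not pass limma's test (adjusted p = 0.151). The trend was called in 61.3% of all genes tested, 31% upward and 30.2% downward, so 3 of 4 genes is a share near the background and says little about these genes in particular.

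With log2 reads as a covariate the rise of Sgk1 was 0.32 (adjusted p = 1.80e-08 in limma's fit). The fall of Nr3c1 was reduced to -0.056 (adjusted p = 0.00135) and that of Hsd11b1 to -0.0051 (adjusted p = 0.935). Without the 12 samples with few reads the values were 0.31 for Sgk1 (adjusted p = 3.32e-08), -0.092 for Nr3c1 (adjusted p = 1.09e-05) and -0.014 for Hsd11b1 (adjusted p = 0.819) in limma's fit. The decline of Hsd11b1 was thus not called without those samples or with depth in the model, and it was not called with 1 sample per title number either (-0.11, adjusted p = 0.0805 in limma's test). With 5 principal components of all genes as covariates Hsd11b1 rose instead, by 0.15 (adjusted p = 0.00351 in limma's fit), where 21.9% of all genes were called. Quantile normalization reduced the fall of Nr3c1 to -0.055. With 1 sample per title number Sgk1 changed by 0.29 (adjusted p = 2.07e-06 in limma's test) and Nr3c1 by -0.15 (adjusted p = 2.17e-08). That fit called 56.3% of all genes. Within the blocks in their order the change of Sgk1 was 0.16, 0.21 and 0.11, that of Nr3c1 was -0.13, -0.076 and -0.025, and that of Hsd11b1 was -0.24, -0.18 and 0.038. Of these, only the 3 values of block 2 passed limma's test (adjusted p = 0.00349, 0.0169 and 0.0150), and block 2 is also the largest block. The trend was called in 0%, 56.6% and 6.53% of all genes within blocks 1, 2 and 3.

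Fkbp5 did not follow a straight line. Its median was 54.5 FPKM in the first of the 10 parts, 35.2 in the fifth, 29.6 in the seventh and 48.5 in the last. Within block 2 it fell by 0.46 on the log2 scale (SE 0.13, limma adjusted p = 0.00114), within block 3 the change was 0.34 (adjusted p = 0.227), and within block 1 it was -0.0090 (adjusted p = 0.992). The test of a difference between these slopes gave an adjusted p of 0.0209 for Fkbp5 and of 0.315, 0.202 and 0.798 for Nr3c1, Hsd11b1 and Sgk1, and 27.7% of all genes were called in it. The value for Fkbp5 became 0.0513 without the 12 samples with few reads, none of which lies in block 3. A natural spline over the ranks gave Fkbp5 an adjusted p of 0.00136 in limma's test, and with 1 sample per title number the straight trend was -0.26 with an adjusted p of 0.0399. These tests called 75.1% and 56.3% of all genes, so neither call sets Fkbp5 apart.

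The blocks themselves differed for Nr3c1 and Sgk1. Sgk1 had medians of 23.2, 27.2 and 30.2 FPKM in blocks 1, 2 and 3, with means of 24.1 ± 5.11, 27.4 ± 5.59 and 29.5 ± 6.35 FPKM (SD over the samples of the block), and limma's F test gave an adjusted p of 5.98e-06. The samples ranged from 14.9 to 35.8, from 13.8 to 43.9 and from 15.5 to 43.7 FPKM in these blocks, so the blocks overlapped widely. Nr3c1 had medians of 82.1, 81.9 and 78.4 FPKM (adjusted p = 1.65e-07). Hsd11b1, with medians of 13.5, 14.04 and 14.2 FPKM, and Fkbp5, with 54.2, 38.6 and 40.2 FPKM, did not pass limma's test (adjusted p = 0.340 and 0.172). With 7 blocks cut at gaps above 250 Hsd11b1 did pass (adjusted p = 8.49e-08), and there 10 samples numbered 60213 to 60650, with median reads of 3123507, had a median Hsd11b1 level of 22.3 FPKM. Among all genes, 53% were called with 3 blocks and 73% with 7. With 1 sample per title number and 3 blocks, limma's F test gave an adjusted p of 2.52e-06 for Nr3c1 and 0.00095 for Sgk1. It then called 48.2% of all genes. Samples among the highest 25% of all Sgk1 values made up 7.69% of block 1, 20.7% of block 2 and 36.8% of block 3. Median reads rose over the same blocks, from 4409766 to 4567750 and 4789736. With log2 reads as a covariate, limma's F test over 3 blocks gave an adjusted p of 0.000238 for Nr3c1 and 1.53e-05 for Sgk1. Hsd11b1 was again not called (adjusted p = 0.834), and 41.7% of all genes were called in that fit.

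**Figure D3:**
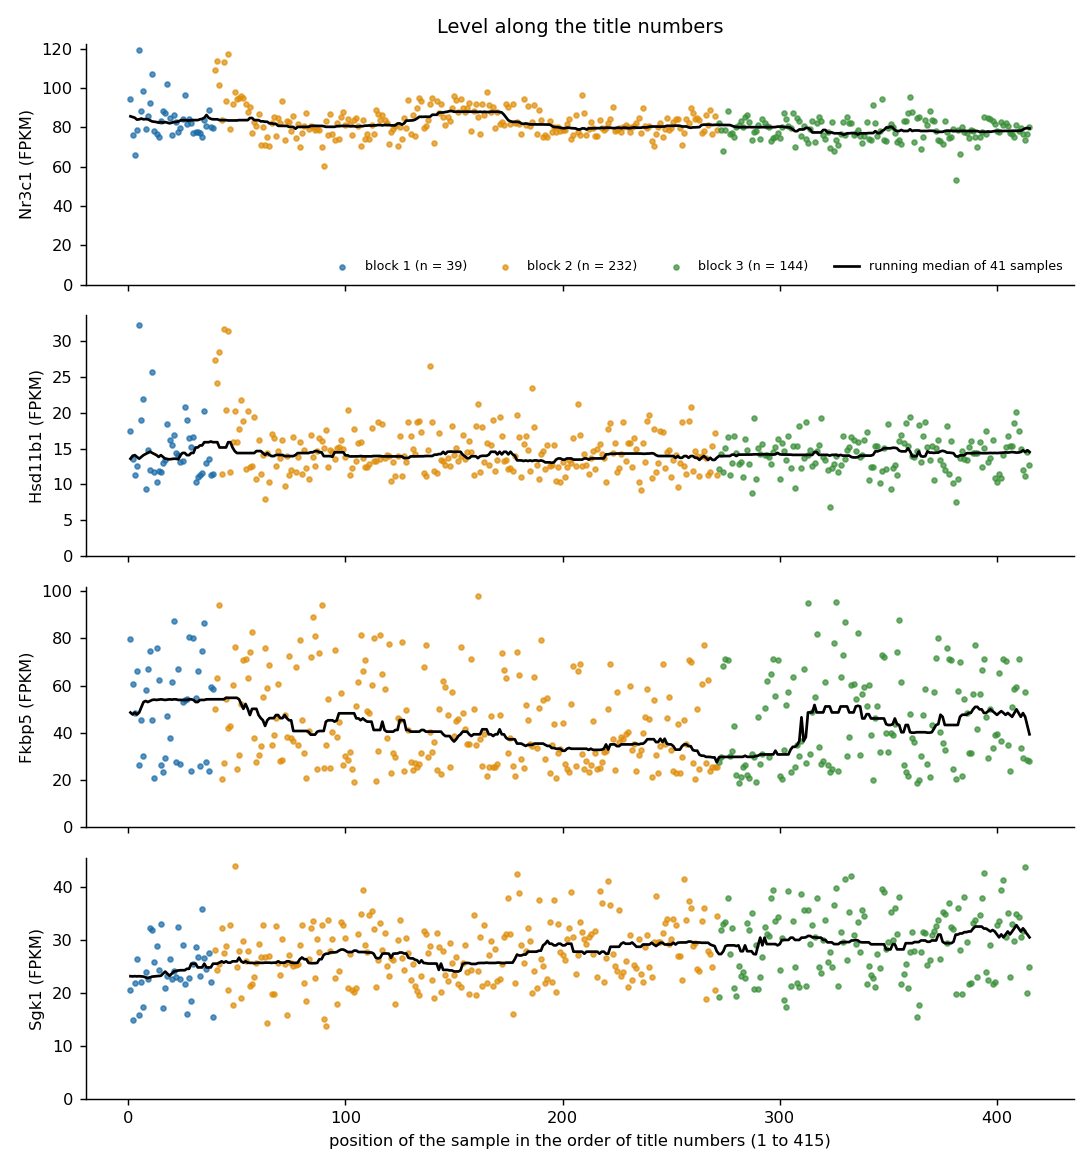
FPKM (y axis, starting at 0) by position of the sample in the order of title numbers (x axis) for each gene, coloured by block, with the running median of 41 samples as a black line. Sgk1 drifts upward from a median of 24.1 FPKM in the first of 10 parts to 32.2 in the last, Fkbp5 dips to 29.6 FPKM in the seventh, and the highest Nr3c1 value (119.2 FPKM) and Hsd11b1 value (32.4 FPKM) lie in the first part.

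Samples that carried the same title number resembled each other most for Sgk1 and Fkbp5. The median difference between the samples of a same-number pair, written as a fold on the FPKM + 1 scale, was 1.23 for Fkbp5, against 1.501 for pairs of neighbours with different numbers and 1.52 for all 85905 pairs of samples. For Sgk1 it was 1.12, against 1.22 and 1.23. For Hsd11b1 the 3 values were 1.17, 1.18 and 1.19, and for Nr3c1 they were 1.07, 1.06 and 1.08, so that same-number samples of these 2 genes were about as far apart as neighbours. Of the 8 numbers on 3 samples, 63032 had Fkbp5 levels of 24.1, 25.5 and 25.5 FPKM, 63942 had 22.2, 25.5 and 26.3, 61638 had 27.8, 30.5 and 34.3, and 64297 had 58.7, 59.6 and 71.5. The samples lay farther apart for 62901, with 23.8, 30.8 and 35.1 FPKM, and for 64003, with 48.7, 55.3 and 81.98. They lay farthest apart for 62608, with 25.7, 38.7 and 57.1 FPKM, and for 60444, with 20.6, 27.3 and 54.2, so the resemblance did not hold for every number.

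The resemblance, which is the share of the variance that same-number samples have in common, was 0.610 for Sgk1 and 0.581 for Fkbp5. These lay above 99.5% and 98.9% of all genes tested, whose median was 0.228. It was 0.336 for Nr3c1 and 0.181 for Hsd11b1. In limma's test of title numbers over the samples with a shared number, Sgk1 had an adjusted p of 2.33e-10, Fkbp5 of 5.32e-09, Nr3c1 of 0.00128 and Hsd11b1 of 0.0558. The test called 57.5% of all genes, so the count of 3 of 4 genes is near the background, while Sgk1 and Fkbp5 stood within the top 0.217% and 0.955% of genes by their F statistic. After a spline of the title rank and log2 reads were removed, the resemblance was 0.586 for Sgk1 (adjusted p = 3.47e-09 in limma's test) and 0.564 for Fkbp5 (adjusted p = 4.83e-08). For Nr3c1 it was then 0.0951 (adjusted p = 0.348) and for Hsd11b1 0.120 (adjusted p = 0.181), with a median of 0.142 over all genes.

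**Figure D4:**
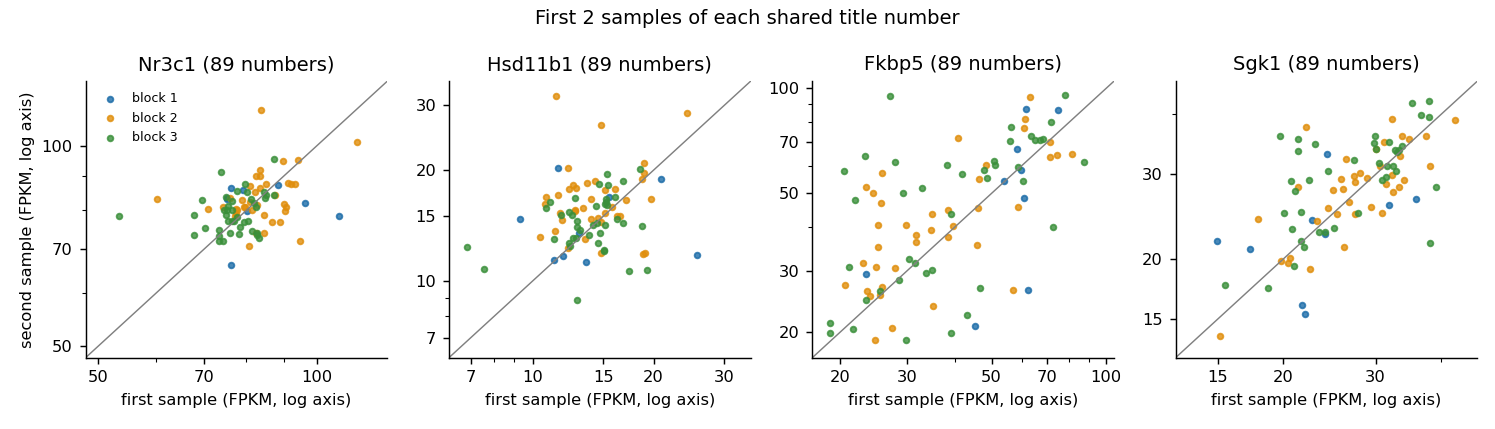
FPKM of the second sample (y axis, log scale) against that of the first sample (x axis, log scale) for the 89 title numbers on more than 1 sample, coloured by block, with the line of equal values in grey. Points of Fkbp5 and Sgk1 stretch along the line, where the resemblance was 0.581 and 0.610, and points of Hsd11b1 scatter around it, where the resemblance was 0.181.

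The title suffix gave no call. For the samples with suffix 3, 4, 5 or 6, limma's F test had an adjusted p of 0.9998 for each of the 4 genes, and 0% of all genes were called, although 518 of them had an unadjusted p under 0.05. Fkbp5 had medians of 37.6, 41.2, 48.3 and 48.3 FPKM at suffixes 3, 4, 5 and 6, on 42.2%, 42.9%, 8.43% and 5.78% of the samples, and its unadjusted p was 0.282 in the limma fit. Sgk1 had medians of 27.3, 27.7, 29.3 and 27.8 FPKM.

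Fkbp5 and Sgk1, both receptor targets, rose and fell together. Their correlation over all samples on the log2(FPKM + 1) scale was 0.356 (rho 0.362, permutation p = 1e-05, adjusted p = 3e-05 over the 6 pairs of genes), and leaving out the 2 samples most distant from the Fkbp5 median gave 0.356. In 4 near-equal sets of samples ordered by Fkbp5, from lowest to highest, the median Sgk1 level was 24.8, 26.4, 29.1 and 31.2 FPKM. The Sgk1 ranges of the sets overlapped almost fully, from 15.1 to 39.2 FPKM in the lowest set and from 14.9 to 43.9 FPKM in the highest. With log2 reads removed r was 0.360, and with a spline of the rank also removed 0.424. The permutations over all samples treated samples with the same title number as independent. With 1 sample per title number r was 0.339 (permutation p = 1e-05). In limma's fit with Fkbp5 as the covariate 33.8% of all genes were called, and the adjusted p of Sgk1 was 2.44e-12. Sgk1 stood within the top 1.92% of 16130 genes in the order of r with Fkbp5, and Fkbp5 within the top 1.54% in the order of r with Sgk1, where 33.2% of genes were called.

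The link between the targets was seen between and within title numbers. Over the means of the 89 shared numbers, r of Fkbp5 with Sgk1 was 0.442 (rho 0.459, permutation p = 4e-05). Over the differences between the first 2 samples of each shared number it was 0.379 (rho 0.301, permutation p = 0.00024). Within the blocks in their order r was 0.224, 0.246 and 0.629, with permutation p = 0.169, 0.00016 and 1e-05. The difference between blocks passed limma's interaction test for Sgk1 on Fkbp5 (adjusted p = 0.0222, where 4.19% of genes were called) and for Fkbp5 on Sgk1 (adjusted p = 0.0448, where 0.57% were called). Without the 12 samples with few reads these became 0.0828 and 0.0262. The F statistic of Sgk1 on Fkbp5 was as large without them (9.63, against 9.09), and its place among all genes went from 99 to 16, but only 3 genes were called in that fit.

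The receptor and the enzyme gene also moved together, with r = 0.487 (rho 0.333, permutation p = 1e-05, adjusted p = 3e-05) and r = 0.448 without the 2 samples farthest from the median of Nr3c1. This correlation was smaller once depth was considered: r was 0.298 with log2 reads removed and 0.333 without the 12 samples with few reads. Over the means of the 89 shared numbers r was 0.493 (rho 0.277, permutation p = 1e-05), and over the differences within them 0.595 (rho 0.545, permutation p = 1e-05). Within the blocks in their order it was 0.771, 0.475 and 0.343, each with a permutation p of at most 3e-05. Limma's interaction test over blocks gave an adjusted p of 0.0326 for Hsd11b1 on Nr3c1 and 0.0292 for Nr3c1 on Hsd11b1, against backgrounds of 33.1% and 31.3% of genes called. Without the 12 samples these were 0.452 and 0.547. Quantile normalization reduced r to 0.166, and with 5 principal components of all genes removed it was -0.103 (adjusted permutation p = 0.0542), with a rho of -0.147 that passed (adjusted permutation p = 0.00409), the sign being reversed. Nr3c1 as a covariate called 74.4% of all genes and Hsd11b1 called 70%, and Hsd11b1 was number 1443 of 16130 in the order of r with Nr3c1.

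Over all samples the 4 remaining pairs had correlations nearer to 0. In size they lay below the median absolute r over all genes with Nr3c1 (0.212) or Hsd11b1 (0.180). They lay above the median absolute r with Fkbp5 (0.0813) or Sgk1 (0.0811). As covariates Nr3c1, Hsd11b1, Fkbp5 and Sgk1 called 74.4%, 70%, 33.8% and 33.2% of all genes in limma's fit. Nr3c1 was lower where the targets were higher, with r = -0.127 for Fkbp5 (rho -0.184, permutation p = 0.00946, adjusted p = 0.0114) and r = -0.150 for Sgk1 (rho -0.181, permutation p = 0.0023, adjusted p = 0.00345). Without the 2 samples farthest from the median of Nr3c1 these were -0.142 and -0.150. Removing log2 reads gave -0.254 and -0.175, and removing 5 principal components gave -0.443 and -0.151. Quantile normalization gave -0.342 (rho -0.393, adjusted permutation p = 3e-05 for r) and -0.162. In these last 2 settings Nr3c1 was thus more strongly correlated with Fkbp5 than with Hsd11b1 (r = -0.103 and 0.166). Within the blocks r of Nr3c1 was -0.211, -0.113 and -0.157 with Fkbp5 and -0.177, -0.0805 and -0.0879 with Sgk1, and none of these 6 values passed after adjustment. Spearman's rho of Nr3c1 with Fkbp5 passed within blocks 2 and 3 (adjusted permutation p = 0.0367 and 0.00772). Over the differences within shared title numbers the sign of r with Nr3c1 changed, to 0.110 for Fkbp5 and 0.137 for Sgk1. Neither value passed (adjusted permutation p = 0.363 and 0.299). Hsd11b1 had r = 0.154 with Fkbp5 (rho 0.164, permutation p = 0.00176, adjusted p = 0.00345) and r = -0.124 with Sgk1 (rho -0.121, permutation p = 0.0119, adjusted p = 0.0119). Without the 2 samples farthest from the median of Hsd11b1 these were 0.180 and -0.106. Within the blocks they were -0.0491, 0.179 and 0.2004 with Fkbp5 and -0.303, -0.0925 and -0.0788 with Sgk1. Those with Fkbp5 passed in blocks 2 and 3 (adjusted permutation p = 0.0132 and 0.0314), and none with Sgk1 passed. Over all samples the enzyme gene thus had opposite signs with the 2 targets, and both values were small. The value with Sgk1 did not pass after quantile normalization by Pearson's r (-0.0930, adjusted permutation p = 0.0584) but did by Spearman's rho (-0.101, adjusted permutation p = 0.0399).

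**Figure D5:**
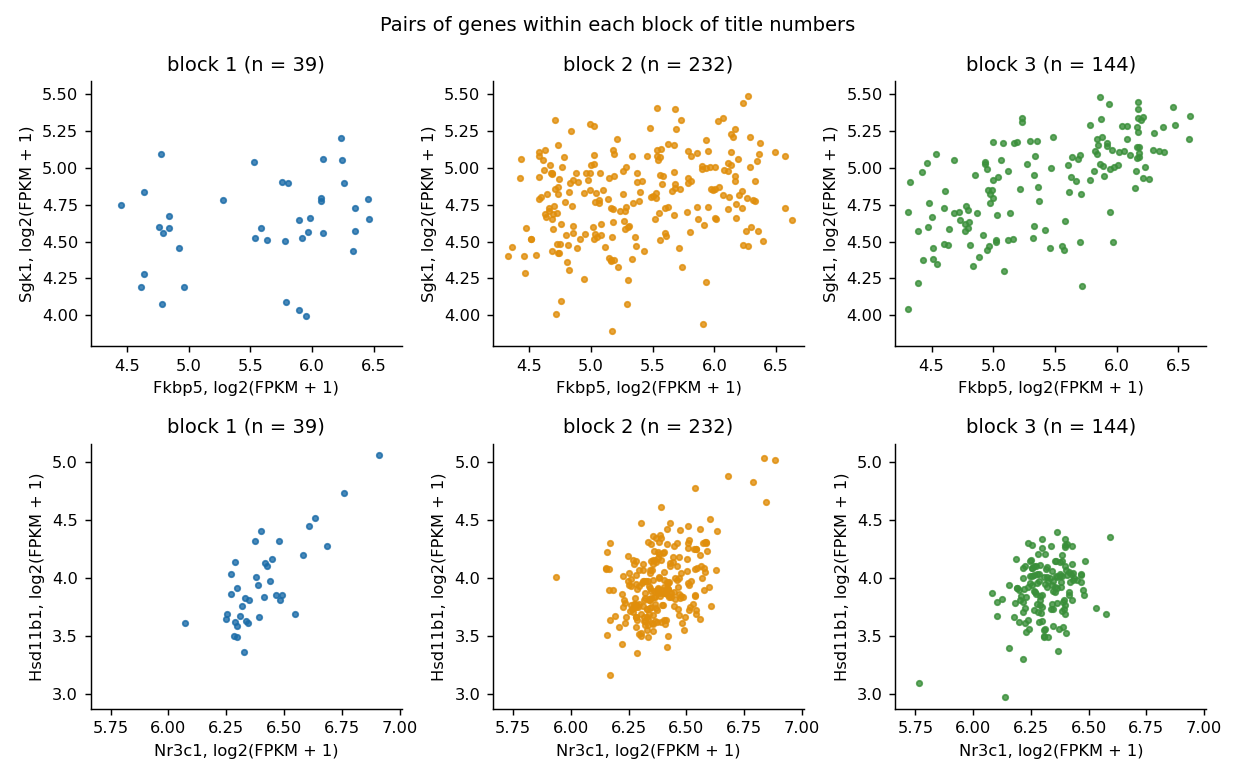
Top row, Sgk1 against Fkbp5, and bottom row, Hsd11b1 against Nr3c1, both axes as log2(FPKM + 1), in blocks 1, 2 and 3 of the title numbers, 1 point per sample. Sgk1 follows Fkbp5 most closely in block 3 (r = 0.629), and Hsd11b1 follows Nr3c1 most closely in block 1 (r = 0.771), where single samples with few reads lie at the upper right.

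The genes most like each of the 4 can be given by identifier only, because the table pairs no names with its identifiers. By Pearson's r over all samples, Fkbp5 was nearest to ENSRNOG00000019943 (r = 0.920, and 0.966, 0.907 and 0.926 within the blocks). That gene ranged from 14.03 to 71.2 FPKM. Its farthest gene was ENSRNOG00000009227, with r = -0.699. Sgk1 was nearest to ENSRNOG00000007830 (r = 0.851, and 0.833, 0.825 and 0.864 within the blocks) and farthest from ENSRNOG00000054762 (r = -0.549), a gene with a median of 10 reads. These 4 genes had correlations between -0.106 and 0.0540 with log2 reads. The highest r with Nr3c1 was 0.876 and the highest with Hsd11b1 was 0.672, for genes whose own r with log2 reads was -0.730 and -0.713. The median absolute r over all genes was 0.212 with Nr3c1, 0.180 with Hsd11b1, 0.0813 with Fkbp5 and 0.0811 with Sgk1.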

How the data were processed

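The 415 adipose samples were 1 group, with 39, 232 and 144 samples in blocks 1, 2 and 3. Each mean and SD has n = 415 unless a block or a part of the title order is named. There were 318 title numbers, of which 89 on 186 samples gave 105 same-number pairs, and 317 neighbour pairs. STAR, Picard, featureCounts and DESeq2 are named in the submitters' processing notes without role or version. The genome build and annotation are not given in the sources used here. The deposited table has no unit in its header; the values themselves fitted FPKM made by the authors from whole reads, gene lengths and 1 factor per sample. The sample factors matched median-of-ratios size factors (13665 genes), with a largest relative difference of 2e-15. Whole reads were recovered from the deposited FPKM for 100% of values within 0.001, and 0 columns lacked a sample.

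Tests used log2(FPKM + 1) of 16131 genes with FPKM above 1 in at least 20% of samples, since FPKM are no counts. Limma 3.58.1 (R 4.3.3) tested title rank scaled from 0 to 1, blocks, title numbers, suffixes, log2 reads and each gene as covariate, with Benjamini-Hochberg adjustment over all genes and a threshold of 0.05. Correlations had 100000 two-sided permutations (scipy 1.17.1, numpy 2.4.6, Python 3.11.15). The fits were checked on simulated data. Apart from the tested effect, these values were drawn independently for each gene and sample. The check therefore does not cover dependence between genes or between samples. Voom on recovered reads, other filters, pseudocounts, scalings, covariates and subsets were alternatives. Voom, the omission of samples with few reads, log2 reads in the interaction tests and in the suffix test, and the means and differences of shared numbers were chosen after the data were seen. The genes and lists were chosen with earlier results of these data known. The rule for named genes took the 4 genes and, for each, the genes of highest and lowest r. Identifiers are given for Fkbp5 and Sgk1 only, since 0 names could be matched.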

Additional observations from a re-analysis of the deposited data

Results flagged for a closer look

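Differences between blocks of title numbers that passed limma's interaction test, with Benjamini-Hochberg adjustment over all genes, concerned the trend of Fkbp5 and the links within both pairs of genes. The slope of Fkbp5 along the title numbers differed between the 3 blocks with an adjusted p of 0.0209, with a change of -0.46 in block 2 and of 0.34 in block 3 on the log2 scale. The slope of Hsd11b1 on Nr3c1 differed with an adjusted p of 0.0326, and that of Nr3c1 on Hsd11b1 with 0.0292, the correlation being 0.771, 0.475 and 0.343 in blocks 1, 2 and 3. The slope of Sgk1 on Fkbp5 differed with an adjusted p of 0.0222, and that of Fkbp5 on Sgk1 with 0.0448, the correlation being 0.224, 0.246 and 0.629. These tests called 27.7%, 33.1%, 31.3%, 4.19% and 0.57% of all genes in the order given. The first 3 calls thus do not set these genes apart. Without the samples with fewer than 3500000 reads the 5 adjusted p-values of limma's test were 0.0513, 0.452, 0.547, 0.0828 and 0.0262 in the same order. The slope of Fkbp5 on Sgk1 was still called. The F statistic of Sgk1 on Fkbp5 was 9.63 without them and 9.09 with them, so that the loss of its call came with 3 called genes in that fit against 4.19% of genes before. The blocks are not groups of the study, and what sets them apart is not stated in the labels.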

How the results depend on the processing

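Of the recomputed values, 80.4% kept their direction and side of the threshold or moved by less than their spread, 35 lost a call, 8 gained one, 14 changed sign and 4 moved. All samples form 1 group, so no replicate was left out. No paired analysis was possible because there is only 1 group, so no pairing across groups exists; samples that share a title number are compared in the report. The cause of a change was not tested.

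For the trend along title numbers, Nr3c1 was not called within block 1 (-0.13), within block 3 (-0.025) or with 5 principal components (-0.011). Hsd11b1 was not called with 1 sample per number (-0.11), a spline (-0.14), log2 reads (-0.0051), within block 1 (-0.24), with voom (-0.093) or without samples with few reads (-0.014), its sign changed without a call with array weights (0.00063) and within block 3 (0.038), and with 5 principal components it was a called rise (0.15, limma adjusted p = 0.00351). Fkbp5 became called with 1 sample per number (-0.26), a spline (-0.15) and within block 2 (-0.46), and its sign changed within block 3 (0.34). Sgk1 was not called within block 1 (0.16) or block 3 (0.11). Limma's adjusted p for Fkbp5 trends differing between blocks became 0.0513 without samples with few reads. Blocks cut at gaps above 250 gave Hsd11b1 an adjusted p of 8.49e-08. For title numbers the adjusted p of Nr3c1 was 0.348 with the spline and log2 reads removed, and that of Hsd11b1 was 0.0497 with a filter at 80% of samples and 0.0430 with voom.

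For the change per doubling of reads, Hsd11b1 was not called within block 3 (-0.30). Fkbp5 had 0.077, -0.44 and 0.28 within blocks 1, 2 and 3, called in block 2 only, with r of 0.0266, -0.151 and 0.0691. Sgk1 had -0.057 in block 2, with r = -0.0391. For co-variation differing between blocks, the adjusted p without samples with few reads was 0.452 for Hsd11b1 on Nr3c1, 0.547 for Nr3c1 on Hsd11b1 and 0.0828 for Sgk1 on Fkbp5, and with log2 reads as covariate 0.486 for Nr3c1 on Hsd11b1.

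For r between genes, Nr3c1 and Hsd11b1 had -0.103 with 5 principal components removed (rho -0.147, which passed). Nr3c1 and Fkbp5 had -0.211, -0.113 and -0.157 within the blocks, -0.190 over means of shared numbers and 0.110 over their differences. Nr3c1 and Sgk1 had -0.177, -0.0805, -0.0879, -0.134 and 0.137 in the same order. Hsd11b1 and Fkbp5 had 0.0718 with 5 principal components removed and -0.0491 within block 1. Hsd11b1 and Sgk1 had -0.0930 with quantile normalization, -0.0879 with 5 principal components removed, -0.303, -0.0925 and -0.0788 within the blocks, -0.0542 over means and -0.0620 over differences. Fkbp5 and Sgk1 had 0.224 within block 1. None of these values of Pearson's r passed after adjustment. The log2 SD moved to 0.083 for Nr3c1 and 0.31 for Hsd11b1 with quantile normalization, and to 0.30 for Hsd11b1 and 0.32 for Sgk1 with a pseudocount of 0.1.

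Over all genes, the 9885 called for trend became 0 within block 1 (1526 at an unadjusted p under 0.05 in limma), 1053 within block 3 and 3537 with principal components. Interaction calls went from 4470 to 2714 without samples with few reads, and title-number calls from 9280 to 5012 with the spline and log2 reads removed. Depth calls went from 11297 to 7044 and 4654 within blocks 1 and 3. Without samples with few reads, calls of co-variation differing between blocks went from 33.1% to 7.97% of genes with Nr3c1, from 31.3% to 0.998% with Hsd11b1, from 4.19% to 0.0186% with Fkbp5 and from 0.57% to 1.21% with Sgk1. With log2 reads they were 1.49% with Fkbp5 and 0.961% with Sgk1. As a share of the spread of a gene's reads, counting error was smallest for Fkbp5 (0.782%) and largest for Hsd11b1 (8.16%). Mean reads per sample were highest for Nr3c1 (1898) and lowest for Hsd11b1 (299.9).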
